A study of Rattus norvegicus with 22 samples.

Results

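On the array, 16 probe sets measured the transcripts that make hemoglobin, supply its heme and dispose of it, out of 31042 probe sets that were not array controls. They were taken by annotated symbol: any symbol that begins with Hba or Hbb, together with Alas1, Alas2, Slc4a1, Hmox1, Blvra, Blvrb, Hp and Hpx. Of the 16, 7 were globin probe sets and 9 stood for the other 8 genes, Slc4a1 having 2. All 16 were above the floor of signal 16 on every array, so none was lost to a filter on low values.

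The RNA came from whole right lung lobes of 22 male Sprague-Dawley rats of about 350 g by the labels, 1 array per rat. Each dose of microspheres had 4 rats at 18 h and 4 at 2 h after a jugular vein injection, and Vehicle had 3 at each time. The dose of 25 micron polystyrene microspheres per 100 g of body weight was 2000000 in Severe PE and 1300000 in Mild PE. Vehicle rats were given 0.01% Tween 20 without beads. The volume injected per 100 g was 0.15 ml in Vehicle and Severe PE rats and 0.1 ml in Mild PE rats. Mild PE therefore differed from Vehicle in volume as well as in beads, and the part of volume was not tested. All lungs, Vehicle lungs included, had their airways lavaged with 8 ml of saline before removal, and the age of the rats was not given. The beads block small arteries without a blood clot, so the model has no thrombus, and the RNA is that of all cells left in the lobes, cells of the blood included. The comparisons ask how acute pulmonary embolism (PE), in 2 sizes and at 2 times, bears on the lung transcriptome.

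Hemoglobin is built from alpha and beta globin chains, each of which carries a heme group. Reticulocytes, the youngest red cells of the blood, still hold much globin RNA together with Alas2, the red cell form of the first enzyme of heme synthesis, and Slc4a1, the band 3 anion exchanger of the red cell membrane. When red cells break open, haptoglobin (Hp) binds free hemoglobin and hemopexin (Hpx) binds free heme. Heme oxygenase 1 (Hmox1) splits heme into biliverdin, carbon monoxide and iron, and the biliverdin reductases Blvra and Blvrb reduce biliverdin.

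Rat globin genes come in near copies, which limits what their probe sets can tell apart. Of the 7, 3 are annotated to both Hba-a2 and Hba-a1, 2 to both Hbbl1 and Hbb-bs, and 1 each to Hba-a3 and Hbb. Sequence upstream of the genes was taken from RefSeq on the GRCr8 build, in which 11 of the 14 genes by identifier were found. The 120 bases before the annotated start site are shown for the 6 globin genes, as a comparison of their upstream sequence. The probe sets read transcripts, whose sequence was not compared, so these bases do not show what a probe set can tell apart. All 6 are on the minus strand. Capitals mark a CACACCC box, a CCAAT box or a TATAAA box on either strand.
Hba-a1 (chr10:15842581-15842700): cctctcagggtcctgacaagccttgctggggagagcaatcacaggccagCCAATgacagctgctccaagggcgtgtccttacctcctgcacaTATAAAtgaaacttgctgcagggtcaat
Hba-a2 (chr10:15829139-15829258): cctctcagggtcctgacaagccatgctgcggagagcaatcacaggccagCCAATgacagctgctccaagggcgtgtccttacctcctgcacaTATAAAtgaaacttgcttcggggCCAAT
Hba-a3 (chr10:15816944-15817063): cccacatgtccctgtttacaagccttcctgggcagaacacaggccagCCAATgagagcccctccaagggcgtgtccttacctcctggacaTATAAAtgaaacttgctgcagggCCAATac
Hbb (chr1:167663722-167663841): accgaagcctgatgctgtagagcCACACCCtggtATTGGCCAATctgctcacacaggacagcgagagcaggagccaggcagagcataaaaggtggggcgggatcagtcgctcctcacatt
Hbb-bs (chr1:167631631-167631750): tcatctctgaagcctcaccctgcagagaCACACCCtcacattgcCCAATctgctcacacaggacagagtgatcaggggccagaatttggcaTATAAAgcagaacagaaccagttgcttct
Hbbl1 (chr1:167650236-167650355): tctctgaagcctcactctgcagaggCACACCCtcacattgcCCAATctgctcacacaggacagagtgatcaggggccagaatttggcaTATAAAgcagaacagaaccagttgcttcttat
Over the 250 bases before the start sites, Hba-a1 and Hba-a2 were identical at 96.4% of aligned positions and Hbb-bs and Hbbl1 at 93.3%. Hba-a3 was identical to Hba-a1 at 66.4% and to Hba-a2 at 65.5%, and Hbb to Hbb-bs at 61.5%. The CCAAT box was found in all 6 windows and in 34% of 33469 rat windows of 250 bases, searched on both strands. The TATAAA box was found in all but Hbb and in 12.9% of rat windows, and the CACACCC box in the 3 beta globin windows and in 6.12%. In Hbb a CCAAT box on each strand adjoins the other, and these are printed as 1 run of capitals. A TGATAA match, farther upstream than the bases shown, was in the Hba-a1 and Hba-a2 windows, not in that of Hba-a3, and in 7.97% of all windows. A match is a description of these letters and not of a factor's binding. Probe sets annotated to 2 genes are reported under both names, and a level under them may come from either gene.

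Levels are given as log2 of the deposited signal after quantile normalization, and a probe set was called changed when the adjusted p was under 0.05 and the difference at least 1.5-fold. A unit of 1 on this scale is a 2-fold difference. Arrays correlated with each other at 0.941 to 0.985. On 4 arrays there was less signal at the 5′ end of Gapdh and beta-actin: 18-h Vehicle rat 1, 18-h Mild PE rat 4, 2-h Vehicle rat 3 and 2-h Severe PE rat 1. Their 3′ minus 5′ difference was 0.35 to 0.64 for Gapdh on the log2 scale, against 0.18 to 0.32 on the other 18 arrays. Fits without the arrays of less 5′ signal left out only those in the groups compared. In 18-h Severe PE against 18-h Vehicle that was Vehicle rat 1 alone. The alpha and beta globins other than Hba-a3 were among the 351 brightest probe sets on all 22 arrays, where quantile normalization leaves little room, and the sign of small differences between their groups depended on the scaling. Fewer red cells in the tissue and less RNA per cell cannot be told apart in bulk samples.

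Of the 16 members, 1 was called against Vehicle in 18-h Severe PE lungs, where 7.13% of all probe sets were, 3.21% as higher and 3.91% as lower. None was called in 18-h Mild PE (1.03% of all probe sets), 2-h Mild PE (0.332%) or 2-h Severe PE lungs (0.0226%), by limma or by the methods' t-test with adjustment. At an unadjusted p under 0.05 the limma counts were 7, 10 and 2 of 16 there, against 18.7%, 13.2% and 7.67% of all probe sets. The groups of a member did not overlap for 7 of 16 in 18-h Mild PE against Vehicle (16.6% of all probe sets) and for 7 in 18-h Severe PE (23.2%). At 2 h the number was 10 for Mild PE (12.4%) and 1 for Severe PE (6.65%). These counts mix both directions and hold several globin probe sets of near copies. In 2-h Mild PE, Hbb and a probe set of Hba-a2/Hba-a1 lay below Vehicle without overlap only after quantile normalization. Their deposited signals overlapped, for Hbb 21408.8 to 25030.8 in 2-h Mild PE against 20676.5 to 22657.6 in 2-h Vehicle lungs. Between Severe PE and Mild PE they did not overlap for 4 of 16 at 18 h (8%) and 6 at 2 h (7.5%). Between 18 h and 2 h they did not overlap for 7 of 16 in Vehicle (22.4%), 9 in Mild PE (18.2%) and 3 in Severe PE lungs (16.6%).

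No globin probe set was called in any of the 9 comparisons between pairs of groups after quantile normalization, a scale with little room for probe sets this bright. Hbb lay at 14.54, 14.77 and 14.71 in 18-h Vehicle lungs, at 14.65, 14.73, 14.71 and 14.67 in 18-h Mild PE lungs, and at 14.69, 14.32, 14.63 and 14.73 in 18-h Severe PE lungs. The 18-h groups overlapped, and the lowest value was that of Severe PE rat 2. At 2 h Hbb spanned 14.67 to 14.71 in Vehicle lungs, 14.60 to 14.65 in Mild PE lungs and 14.67 to 14.71 in Severe PE lungs. A probe set of Hba-a2/Hba-a1 passed the adjusted p alone, being 0.30 higher in 18-h Mild PE than in 2-h Mild PE lungs (limma adjusted p = 0.0153), short of 1.5-fold. Of the 2 probe sets of Hbbl1/Hbb-bs, the first had levels of 14.35, 13.07, 14.20 and 14.15 in 18-h Severe PE lungs, against 14.69, 14.52 and 14.59 in Vehicle, without overlap, a difference of −0.66 ± 0.33 (SE) that did not pass (limma adjusted p = 0.281). The second read 13.95 to 14.84 and 14.71 to 14.91 in the same groups, and overlapped.

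The share of the summed array signal that the 7 globin probe sets carried was 0.793% to 1.06% in 18-h Vehicle lungs, 0.735% to 0.868% in 18-h Mild PE lungs and 0.552% to 0.827% in 18-h Severe PE lungs. At 2 h it was 0.597% to 0.644% in Vehicle lungs, 0.669% to 0.744% in Mild PE lungs and 0.669% to 0.872% in Severe PE lungs. The PE lungs lay higher than Vehicle at 2 h without overlap, and overlapped with Vehicle at 18 h. Other bright genes moved on the deposited scale too. The summed signal of 9 lung epithelium genes was 142395 to 157134 in 2-h Vehicle lungs and 182265 to 231443 in 18-h Vehicle lungs. In 2-h Severe PE lungs it was 159424 to 201020, without overlap with 2-h Vehicle, and in 2-h Mild PE lungs 148155 to 167249, with overlap. The part of the scaling in the globin shares was not tested. In 2-h Severe PE lungs 6 of the 7 globin probe sets were above 2-h Vehicle after quantile normalization, with a median difference of 0.04, and 7 of 7 on the deposited scale, with a median difference of 0.29. In 2-h Mild PE lungs 3 of 7 were above Vehicle after quantile normalization (median −0.03) and 6 of 7 on the deposited scale (median 0.07). In 18-h Severe PE lungs all 7 were below 18-h Vehicle under quantile normalization, median centring and the deposited scale alike, with medians of −0.24, −0.40 and −0.37. Between the Vehicle groups 5 of 7 were higher at 18 h than at 2 h after quantile normalization and 7 of 7 on the deposited scale, with medians of 0.09 and 0.57.

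Hba-a3, an alpha globin gene with a probe set annotated to it alone, was the globin that varied most. Its levels were 13.66, 13.67 and 14.03 in 18-h Vehicle lungs, 13.57, 13.94, 13.77 and 13.49 in 18-h Mild PE lungs, and 13.35, 10.80, 12.73 and 13.01 in 18-h Severe PE lungs. The 4 Severe PE lungs lay below all Vehicle and Mild PE lungs at 18 h. At 2 h the levels were 12.99, 12.61 and 13.29 in Vehicle lungs, 14.02, 14.03, 14.03 and 14.10 in Mild PE lungs, and 13.29, 13.46, 13.75 and 13.67 in Severe PE lungs. Here the 4 Mild PE lungs were above all lungs of the other 2 groups.

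In 2-h Mild PE lungs Hba-a3 averaged 14.05 against 12.97 in 2-h Vehicle lungs, a difference of 1.08 ± 0.16 (SE) or 2.11-fold, which did not pass over all probe sets (limma adjusted p = 0.0761). It was called in 4 of 16 alternatives, among them median centring and the fit without 2-h Vehicle rat 3. The fit without the arrays of less 5′ signal left out only that rat here, so the same fit was counted again. In 18-h Severe PE lungs it averaged 12.47 against 13.79 in 18-h Vehicle lungs, a difference of −1.31 ± 0.63 (SE) that did not pass (limma adjusted p = 0.270). Without 18-h Severe PE rat 2 that difference was −0.76 ± 0.20 (limma adjusted p = 0.119). The difference of Severe PE from Vehicle at 18 h, less that at 2 h, was −1.89 ± 0.56 and fell just short of the threshold (limma adjusted p = 0.0508). Without 18-h Severe PE rat 2 it was −1.33 ± 0.25 and was called (limma adjusted p = 0.00632), and for Mild PE the same difference between times was then −1.17 ± 0.24 (limma adjusted p = 0.0368). With that rat, which enters the shared spread, it was −1.17 ± 0.56 (limma adjusted p = 0.363). Between the Vehicle groups Hba-a3 was 0.82 higher at 18 h than at 2 h without overlap, and was not called. This Vehicle difference enters both differences between times. From 2 h to 18 h Hba-a3 differed by −0.35 in Mild PE lungs and by −1.07 in Severe PE lungs. With all arrays, 5.73% of all probe sets were called in the Severe PE difference between times and 0.744% in that of Mild PE. Hba-a3 was called in neither of these fits with all arrays. Fits that each left out 1 array called 1242 to 3085 probe sets for Severe PE, against 1778 with all arrays. For Mild PE they called 61 to 461, against 231. The fit without 18-h Severe PE rat 2 is among them, and its own number is not given. In the order of group means, 2-h Mild PE stood first (14.05), followed by 18-h Vehicle (13.79), 18-h Mild PE (13.69), 2-h Severe PE (13.54), 2-h Vehicle (12.97) and 18-h Severe PE (12.47). Each group overlapped with its neighbours in this order.

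**Figure D1:**
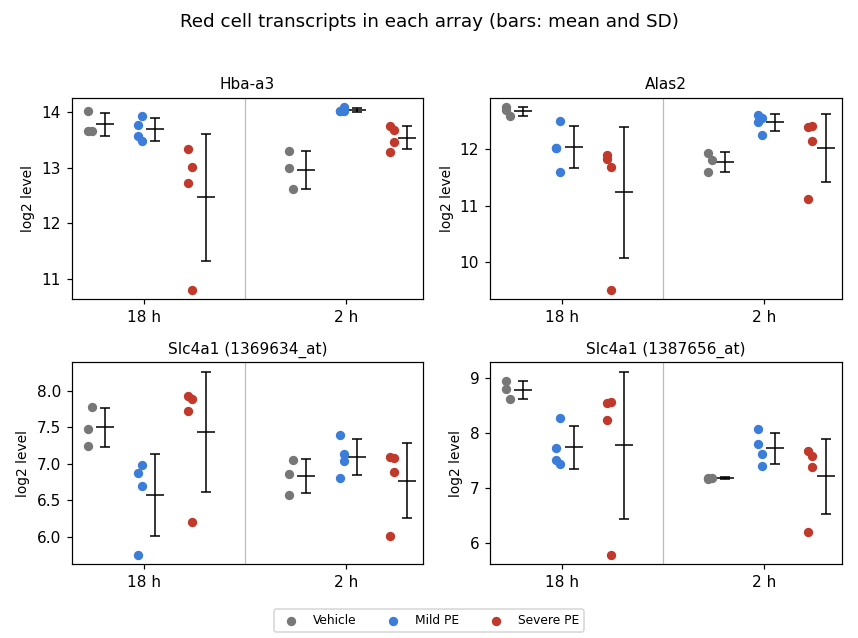
Log2 level of Hba-a3, Alas2 and both Slc4a1 probe sets (the first probe set of the text at lower right) in each array, a point per rat, at 18 h (left) and 2 h (right) in each panel, with doses in the order Vehicle, Mild PE, Severe PE and black bars for group means and SD (n = 3 Vehicle, n = 4 for each PE group). The point far below its group in the 18-h Severe PE columns is rat 2 (Alas2 9.52, Hba-a3 10.80).

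Alas2 was lowest in the same lung, 18-h Severe PE rat 2. Its levels were 12.68, 12.58 and 12.73 in 18-h Vehicle lungs, 12.01, 12.49, 12.03 and 11.60 in 18-h Mild PE lungs, and 11.90, 9.52, 11.83 and 11.69 in 18-h Severe PE lungs. All 8 PE lungs were below the 3 Vehicle lungs at 18 h. At 2 h the order was turned: Vehicle lungs held 11.92, 11.81 and 11.59, Mild PE lungs 12.48, 12.55, 12.59 and 12.25, and Severe PE lungs 11.13, 12.14, 12.39 and 12.40. The 2-h Mild PE lungs were above all 2-h Vehicle lungs, and so were 3 of the 4 Severe PE lungs, the exception being rat 1, whose array was one of those with less 5′ signal.

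Alas2 was 1.43 ± 0.63 (SE) lower in 18-h Severe PE than in 18-h Vehicle lungs, 11.23 against 12.66, which did not pass (limma adjusted p = 0.230). Without rat 2 the difference was smaller and far less variable, −0.86 ± 0.08, and was called (limma adjusted p = 0.0235). In 18-h Mild PE lungs it was −0.63 ± 0.21 (limma adjusted p = 0.186), and in 2-h Mild PE lungs 0.69 ± 0.12 (limma adjusted p = 0.0993). The difference of Severe PE from Vehicle at 18 h, less that at 2 h, was −1.67 ± 0.62 for Alas2 (limma adjusted p = 0.124, 5.73% of all probe sets called). Without 2-h Severe PE rat 1 it was −1.96 ± 0.59 and was called (limma adjusted p = 0.0432). That is 1 of 22 fits that each left out 1 array. In those fits 1242 to 3085 of all probe sets were called, against 1778 with all arrays. Between the Vehicle groups Alas2 was 0.89 ± 0.11 higher at 18 h than at 2 h with no overlap, short of the threshold (limma adjusted p = 0.162).

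Slc4a1 was read by 2 probe sets. On the first the levels were 8.79, 8.61 and 8.93 in 18-h Vehicle lungs, 7.50, 8.28, 7.72 and 7.43 in 18-h Mild PE lungs, and 8.54, 5.78, 8.22 and 8.55 in 18-h Severe PE lungs. All PE lungs were below Vehicle, rat 2 of Severe PE by far. At 2 h they were 7.18, 7.18 and 7.15 in Vehicle lungs, 8.06, 7.62, 7.80 and 7.40 in Mild PE lungs, and 6.19, 7.39, 7.67 and 7.57 in Severe PE lungs. The 2-h Mild PE lungs lay above Vehicle, and the lowest 2-h lung was again Severe PE rat 1.

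The 18-h Mild PE lungs were 1.04 ± 0.22 (SE) below 18-h Vehicle on the first probe set, 7.73 against 8.78 (limma adjusted p = 0.0868), and 0.92 ± 0.33 below on the second probe set (adjusted p = 0.219). The 18-h Severe PE lungs differed from Vehicle by −1.003 ± 0.73 on the first and −0.06 ± 0.47 on the second (limma adjusted p = 0.475 and 0.987). Without rat 2 the second read 0.35 ± 0.16 higher in Severe PE and the first 0.34 ± 0.14 lower (limma adjusted p = 0.300 and 0.241), so the 2 probe sets disagreed in sign and neither passed. The largest difference of the gene was between the Vehicle groups, 8.78 at 18 h and 7.17 at 2 h on the first probe set, or 1.60 ± 0.09. It missed the threshold (limma adjusted p = 0.0622) in a comparison in which 0.0161% of all probe sets were called.

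**Figure D2:**
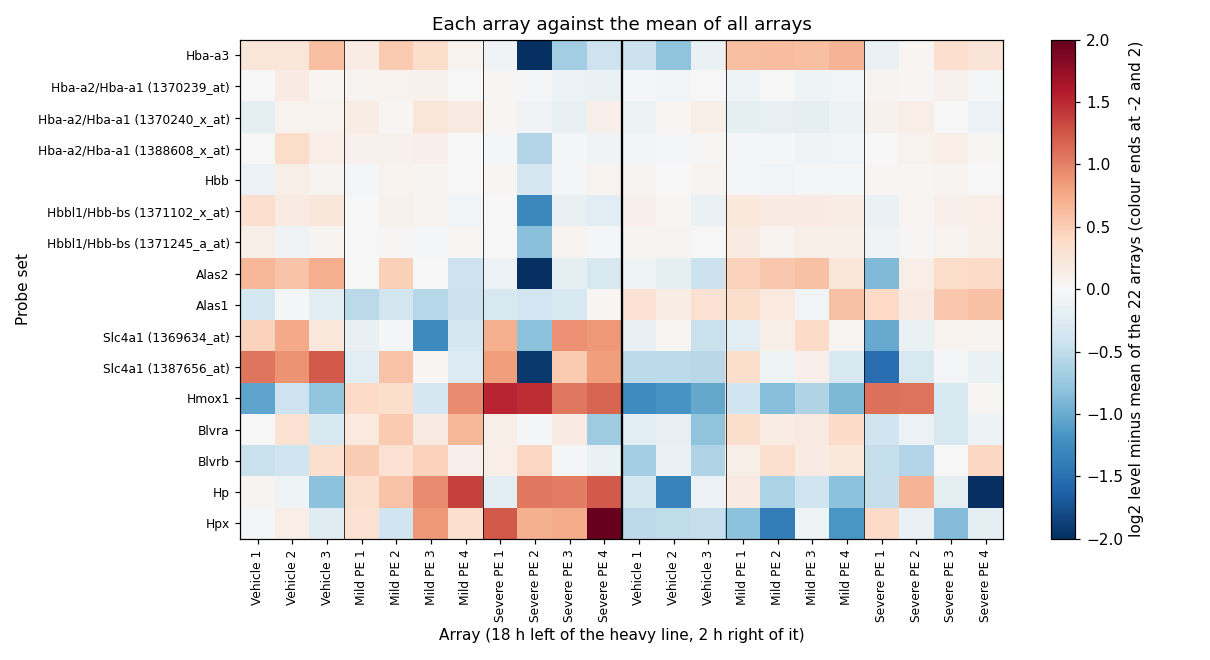
Log2 level minus the mean of the 22 arrays for each of the 16 probe sets (rows) and each array (columns), 18 h left of the heavy line and 2 h right of it, doses from Vehicle to Severe PE within each, blue below and red above the mean with colours ending at −2 and 2. 18-h Severe PE rat 2 is blue for Hba-a3, Alas2, both Slc4a1 and both Hbbl1/Hbb-bs probe sets, and red for Hmox1 (11.42).

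The 18-h Severe PE rat 2 stood apart in red cell transcripts. It was the lowest of the 22 lungs for 5 of 7 globin probe sets and for 9 of 21 genes of a list of red cell membrane and reticulocyte genes, against 18.5% of all probe sets, ties at the floor included. Its median deviation from the other 3 lungs of its group was −0.54 over the globins and −0.72 over that list, against 0 over all probe sets, 0.01 over 9 lung epithelium genes and 0.04 over 7 endothelium genes. It also lay below the rest of its group by a median of 0.64 over 7 platelet genes and 0.33 over 7 lymphocyte genes. Among the genes named, Epb42 (protein 4.2, which ties band 3 to the membrane skeleton) was at the floor, against 5.67 to 7.03 in the other 3 lungs. Fech, which inserts iron into the porphyrin ring, read 9.53 against 10.90 to 11.17. Over the 8 heme synthesis genes, Fech included, the median deviation was 0.03. Of these 8, 3 lay below all other lungs of the group, against 18.4% of all probe sets. The cause was not tested.

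Few other red cell genes were called at 18 h. Of 21 measured genes of the membrane and reticulocyte list, Slc4a1 included, 2 fell and none rose in 18-h Severe PE against 18-h Vehicle. Of all probe sets 3.91% fell and 3.21% rose there. The median difference of the list was −0.74, against 0 over all probe sets. Markers of some other cell types had medians of like size there. The median was −0.70 over 7 endothelium genes, of which Vwf and Tie1 fell, and −0.95 over 7 lymphocyte genes, of which Cd3g and Cd79b fell. The other cell types did not: platelets 0.30, neutrophils 0.53, macrophages 0.61, hepatocytes 0.07 and lung epithelium −0.11. The 2 genes of the red cell list were Ank1 (ankyrin of the red cell skeleton), 5.35 ± 0.74 against 7.64 ± 0.53 (SD, n = 4 and 3, limma adjusted p = 0.0391), and Tmod1 (tropomodulin), 8.37 ± 0.34 against 9.45 ± 0.09 (SD, n = 4 and 3, adjusted p = 0.0275). In 18-h Severe PE rat 2 both lay within the range of the rest of the group, Ank1 at 4.93 (4.66 to 6.33) and Tmod1 at 8.42 (7.92 to 8.73). Without rat 2 the call was 1 of 21, Add2 (beta-adducin, −0.84), with a median of −0.36. Without the arrays of less 5′ signal, here 18-h Vehicle rat 1 alone, it was 0 of 21 with a median of −0.68. Over all probe sets 650 were then called higher and 661 lower, against 997 and 1215 with that rat. In 18-h Mild PE lungs 0 of 21 were called, and the median was −0.73, with Bpgm (bisphosphoglycerate mutase, −0.77, adjusted p = 0.0655) and Add2 (−1.18, adjusted p = 0.0703) nearest to the threshold. The endothelium and lymphocyte medians were −0.42 and −0.41 in these lungs. Those of the other cell types ran from −0.32 (platelets) to 0.52 (macrophages). Not all of the list had lower means in 18-h Severe PE lungs: Slc25a37, the mitochondrial iron importer mitoferrin, averaged 8.75 there against 8.22 in Vehicle lungs, and Cd36 9.11 against 8.71. At 2 h the medians were 0.02 in Mild PE and 0.13 in Severe PE lungs, with 0 of 21 called in each. Between the Vehicle groups the list's median was 0.45 higher at 18 h than at 2 h, with 0 of 21 called.

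The summed signal of the 21 genes was 16642 to 18589 in 18-h Vehicle lungs, 11205 to 12655 in 18-h Mild PE lungs and 8958 to 14013 in 18-h Severe PE lungs, so at 18 h no PE lung reached the lowest Vehicle lung. The same held for the sum of the 7 endothelium genes, 45847 to 52117 in 18-h Vehicle, 35478 to 43228 in 18-h Mild PE and 32145 to 39182 in 18-h Severe PE lungs. For the 7 lymphocyte genes it held for Severe PE (2656 to 4193) and not for Mild PE (3689 to 6712), against 5956 to 8160 in Vehicle. Their part in the red cell values was not tested. At 2 h the sums were 14205 to 17002 in Vehicle lungs, 14569 to 16062 in Mild PE lungs and 14532 to 15723 in Severe PE lungs, and overlapped. Of 8 erythroid transcription factors and receptors, 1 rose in 18-h Severe PE lungs (3.21% of all probe sets). This was the transferrin receptor Tfrc, which many dividing cells also use. Klf1, a regulator of beta globin, read 6.10 there against 7.63 in 18-h Vehicle lungs (difference −1.54, limma adjusted p = 0.242), and 5.82 in 2-h Vehicle lungs. Of 5 globin probe sets outside the members, looked up after the other values were seen, those of the embryonic globins Hbz and Hbg1 had no array above the floor. Hbe1 and Hbe2 peaked at 5.96 and 6.94, with 1 and 4 arrays at the floor, and Hbq1b/Hbq1 (theta globin) read 6.91 to 9.81 with none there.

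Alas1, the form of the first heme enzyme used by all cells, was lower at 18 h than at 2 h in Mild PE and Severe PE lungs. At 18 h it read 11.59, 11.92 and 11.72 in Vehicle lungs, 11.42, 11.59, 11.38 and 11.52 in Mild PE lungs and 11.63, 11.57, 11.63 and 11.98 in Severe PE lungs. At 2 h it read 12.23, 12.09 and 12.25 in Vehicle lungs, 12.30, 12.14, 11.89 and 12.53 in Mild PE lungs and 12.34, 12.12, 12.49 and 12.53 in Severe PE lungs. Within each dose all 18-h lungs were below all 2-h lungs. Alas1 was lower at 18 h than at 2 h in Mild PE lungs by 0.74 ± 0.14 (SE), 11.48 against 12.22 (limma adjusted p = 0.01996), and in Severe PE lungs by 0.67 ± 0.13, 11.70 against 12.37 (adjusted p = 0.0260), both called. In these comparisons 5.45% and 6.3% of all probe sets were called, and of the Mild PE calls 45.6% were higher at 18 h, against 56.4% with median centring. In Vehicle lungs the difference was −0.45 ± 0.11 (limma adjusted p = 0.229). In neither dose did the test of this difference between times against that of Vehicle pass (−0.29 ± 0.19 for Mild PE and −0.22 ± 0.19 for Severe PE, limma adjusted p = 0.549 and 0.601). With the replicate number as a block both adjusted p-values missed the threshold, at 0.0698 in Mild PE and 0.0688 in Severe PE, and 5 of the 8 Severe PE fits and 2 of the 8 Mild PE fits without 1 array gave no call.

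Among 8 measured genes of heme synthesis none was called against Vehicle at either time or dose, other than Alas2 in 18-h Severe PE lungs without rat 2. Cpox (coproporphyrinogen oxidase) came nearest, 9.39 ± 0.14 in 18-h Severe PE and 8.99 ± 0.05 in 18-h Vehicle lungs (SD, n = 4 and 3, limma adjusted p = 0.0445), less than 1.5-fold. Urod, a step earlier, read 10.88 ± 0.10 and 11.23 ± 0.13 in the same groups (SD, n = 4 and 3, limma adjusted p = 0.0638). Fech read 10.66 ± 0.76 and 11.55 ± 0.05 (limma adjusted p = 0.254), its wide spread in Severe PE set by rat 2. Between times in Severe PE lungs, Alad, the second enzyme, was called higher at 18 h by 0.71 ± 0.17 (limma adjusted p = 0.0463).

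Hmox1 was the one member called against Vehicle. At 18 h its levels were 8.90, 9.54 and 9.17 in Vehicle lungs, 10.34, 10.31, 9.61 and 10.90 in Mild PE lungs, and 11.48, 11.42, 10.9995 and 11.12 in Severe PE lungs. The 3 groups did not overlap and followed the dose. At 2 h the levels were 8.70, 8.77 and 8.92 in Vehicle lungs, 9.55, 9.10, 9.35 and 9.05 in Mild PE lungs, and 11.05, 11.04, 9.64 and 9.97 in Severe PE lungs. These groups did not overlap either, and 2 Severe PE lungs were more than 1 unit above the other 2.

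In 18-h Severe PE lungs Hmox1 averaged 11.26 against 9.20 in 18-h Vehicle lungs, a rise of 2.05 ± 0.19 (SE) or 4.15-fold (limma adjusted p = 0.00786). The call held in 15 of 16 alternatives, with each array left out in turn among them. Of these, the fit without the arrays of less 5′ signal left out only 18-h Vehicle rat 1, and repeats the fit without that rat. The call was lost with the replicate number as a block (limma adjusted p = 0.114), a fit in which no probe set of the array was called. In 2-h Severe PE lungs it averaged 10.43 against 8.80 in Vehicle, 1.63 ± 0.41 higher but not called (limma adjusted p = 0.385), and in 18-h Mild PE lungs 10.29 against 9.20, 1.09 ± 0.32 higher (adjusted p = 0.156). With 1 fit on all 22 arrays, which pools the spread of the 6 groups, both were called (limma adjusted p = 0.0207 and 0.0472). In 2-h Mild PE lungs the difference was 0.46 ± 0.14 (adjusted p = 0.266).

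Severe PE exceeded Mild PE in Hmox1 by 0.97 ± 0.27 at 18 h and by 1.16 ± 0.36 at 2 h without overlap, and neither passed (limma adjusted p = 0.202 and 0.250), 0% and 0.438% of all probe sets being called there. The difference of Severe PE from Vehicle at 18 h, less that at 2 h, was 0.42 ± 0.45 (limma adjusted p = 0.674), and that of Mild PE 0.62 ± 0.45 (adjusted p = 0.591). In the 2-way model over the 22 arrays, Hmox1 passed for time and for dose (adjusted p = 0.00585 and 0.000216) and not for their interaction (0.716). The groups ran from 18-h Severe PE (11.26) through 2-h Severe PE (10.43), 18-h Mild PE (10.29), 2-h Mild PE (9.26) and 18-h Vehicle (9.20) to 2-h Vehicle (8.80). In this order each group overlapped with the next, save 18-h Mild PE with 2-h Mild PE.

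**Figure D3:**
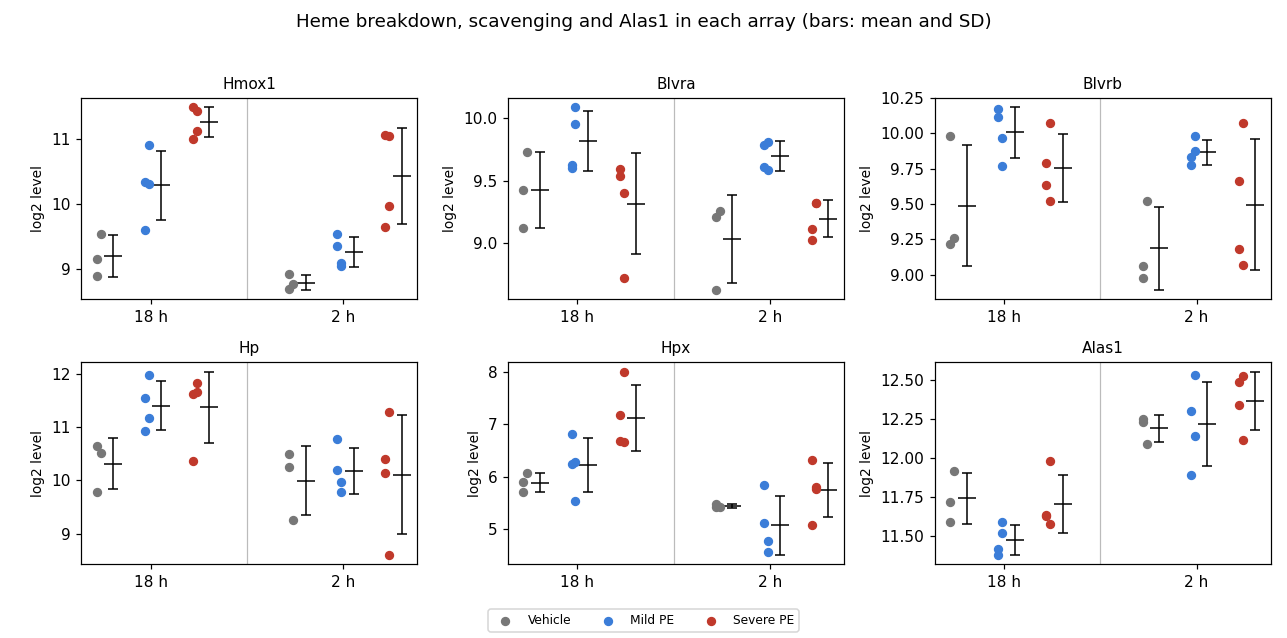
Log2 level of Hmox1, Blvra, Blvrb, Hp, Hpx and Alas1 in each array, a point per rat, at 18 h (left) and 2 h (right) in each panel, doses from Vehicle to Severe PE, with black bars for group means and SD (n = 3 Vehicle, n = 4 for each PE group). Hmox1 ascends with dose at both times, to 11.26 in 18-h Severe PE, and Alas1 separates the times.

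Genes that control Hmox1 or share its regulator NRF2 gave mixed signs at 18 h. Of 12 measured, 2 rose and 2 fell in 18-h Severe PE against Vehicle, where 3.21% of all probe sets rose and 3.91% fell. Txnrd1 (thioredoxin reductase) read 11.18 ± 0.10 against 10.32 ± 0.21 and Srxn1 (sulfiredoxin) 8.81 ± 0.29 against 7.77 ± 0.37 (SD, n = 4 and 3, limma adjusted p = 0.0155 and 0.0478). Nqo1 (a quinone reductase) was lower, 11.61 ± 0.08 against 12.22 ± 0.07, and so was Bach1, a repressor of Hmox1, 5.91 ± 0.16 against 6.66 ± 0.23 (SD, n = 4 and 3, limma adjusted p = 0.0104 and 0.0323). Without rat 2 the calls were Txnrd1 and Nqo1, and without the arrays of less 5′ signal they were Txnrd1 and Nqo1 again. Nfe2l2, which encodes NRF2, differed by 0.55 ± 0.16 (adjusted p = 0.0968). At 2 h none of the 12 was called, the nearest in Severe PE being Maff, a small MAF protein, at 1.34 ± 0.20 (limma adjusted p = 0.157).

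Macrophages are a known place of Hmox1 expression, and some of their markers were higher in the same lungs. The summed signal of 7 macrophage genes was 12460 to 14165 in 18-h Vehicle lungs, 23972 to 28699 in 18-h Mild PE lungs and 27810 to 30227 in 18-h Severe PE lungs. At 2 h it was 10617 to 12191 in Vehicle lungs, 13034 to 17947 in Mild PE lungs and 11918 to 17620 in Severe PE lungs. Of the 7, 2 rose in 18-h Severe PE lungs, Chi3l1 (1.78) and Cd163 (2.07), and 1 in 18-h Mild PE lungs, Chi3l1 (1.61). Among all probe sets 3.21% were called higher in 18-h Severe PE lungs, and 1.03% were called in 18-h Mild PE lungs. In 18-h Severe PE lungs Csf1r, the receptor that defines the lineage, read 11.53 against 11.85 (limma adjusted p = 0.469). Without the arrays of less 5′ signal 0 of the 7 were called in 18-h Mild PE lungs, where 3 of all probe sets were, against 321 with them. Chi3l1 carried most of the rise of the sum: alone it had a signal of 4141 to 4638 in 18-h Vehicle, 13103 to 14138 in 18-h Mild PE and 15616 to 18189 in 18-h Severe PE lungs. The other 6 genes summed to 8319 to 9527, 10654 to 15597 and 10356 to 13175 in these groups. The part of macrophages in the Hmox1 result was not tested.

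Behind Hmox1, the biliverdin reductases had their highest means in Mild PE lungs. Blvra read 9.42, 9.73 and 9.12 in 18-h Vehicle lungs, 9.62, 9.95, 9.60 and 10.09 in 18-h Mild PE lungs and 9.54, 9.40, 9.59 and 8.72 in 18-h Severe PE lungs. At 2 h it read 9.21, 9.26 and 8.62 in Vehicle lungs, 9.79, 9.58, 9.61 and 9.81 in Mild PE lungs and 9.02, 9.32, 9.11 and 9.32 in Severe PE lungs. All Mild PE lungs were above all Severe PE lungs of their time. No comparison of pairs was called: 2-h Mild PE differed from 2-h Vehicle by 0.67 ± 0.17 and 2-h Severe PE from 2-h Mild PE by −0.50 ± 0.09 (limma adjusted p = 0.212 and 0.0854). Over all 22 arrays Blvra passed the 2-way model for dose (limma adjusted p = 0.0243), and this was lost without the arrays of less 5′ signal or without any 1 of 4 Mild PE rats (rats 2 and 4 at 18 h, rats 1 and 4 at 2 h).

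Blvrb, which also acts on flavins, was 9.77 to 9.98 in 2-h Mild PE lungs and 8.97 to 9.52 in 2-h Vehicle lungs, without overlap, a difference of 0.68 ± 0.14 (limma adjusted p = 0.155). In 18-h Mild PE lungs it was 9.77 to 10.17 against 9.22 to 9.98 in Vehicle lungs, and in 18-h Severe PE lungs 9.52 to 10.07. Its dose term lay at the threshold (limma adjusted p = 0.0501). Of 7 measured genes of heme breakdown and bilirubin handling, Hmox1 alone was called in 18-h Severe PE lungs (7.13% of all probe sets). There Hmox2, the constant form of the enzyme, read 10.53 ± 0.16 against 10.32 ± 0.13 (SD, n = 4 and 3, limma adjusted p = 0.325).

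Haptoglobin was higher in most PE lungs at 18 h, with wide spread. Hp read 10.66, 10.52 and 9.78 in 18-h Vehicle lungs, 10.93, 11.17, 11.54 and 11.97 in 18-h Mild PE lungs and 10.37, 11.66, 11.63 and 11.82 in 18-h Severe PE lungs. All but Severe PE rat 1 exceeded every Vehicle lung. At 2 h it read 10.24, 9.26 and 10.49 in Vehicle lungs, 10.78, 9.97, 10.20 and 9.78 in Mild PE lungs and 10.14, 11.28, 10.40 and 8.61 in Severe PE lungs, and the groups overlapped. Hp was called between times in Mild PE lungs, 11.40 at 18 h against 10.18 at 2 h, a rise of 1.22 ± 0.30 (limma adjusted p = 0.0461). The call held in 6 of 17 alternatives and had an adjusted p of 0.173 with the replicate block. Among the 17, the fit without the arrays of less 5′ signal left out only 18-h Mild PE rat 4, and repeats the fit without that rat. Against 18-h Vehicle the differences were 1.08 ± 0.33 in Mild PE and 1.05 ± 0.42 in Severe PE lungs (limma adjusted p = 0.161 and 0.194).

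Hemopexin was highest in the 18-h Severe PE lungs. Hpx read 5.90, 6.07 and 5.70 in 18-h Vehicle lungs, 6.25, 5.54, 6.81 and 6.28 in 18-h Mild PE lungs and 7.17, 6.66, 6.69 and 8.01 in 18-h Severe PE lungs. The Severe PE lungs were above all Vehicle lungs. At 2 h it read 5.42, 5.42 and 5.49 in Vehicle lungs, 5.12, 4.56, 5.85 and 4.77 in Mild PE lungs and 6.32, 5.81, 5.08 and 5.77 in Severe PE lungs. The 18-h Severe PE lungs were 1.24 ± 0.36 above 18-h Vehicle (limma adjusted p = 0.0914) and 1.39 ± 0.38 above 2-h Severe PE (adjusted p = 0.0732), short of the threshold, and both were called with 1 fit on all arrays (adjusted p = 0.0244 and 0.00877). In the 2-way model the time term was passed by Alas1, Hmox1, Hp and Hpx, 4 of 16 against 17.6% of all probe sets. The dose term was passed by Blvra and Hmox1, 2 of 16 against 9.93%, and the interaction by none, against 3.62%.

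**Figure D4:**
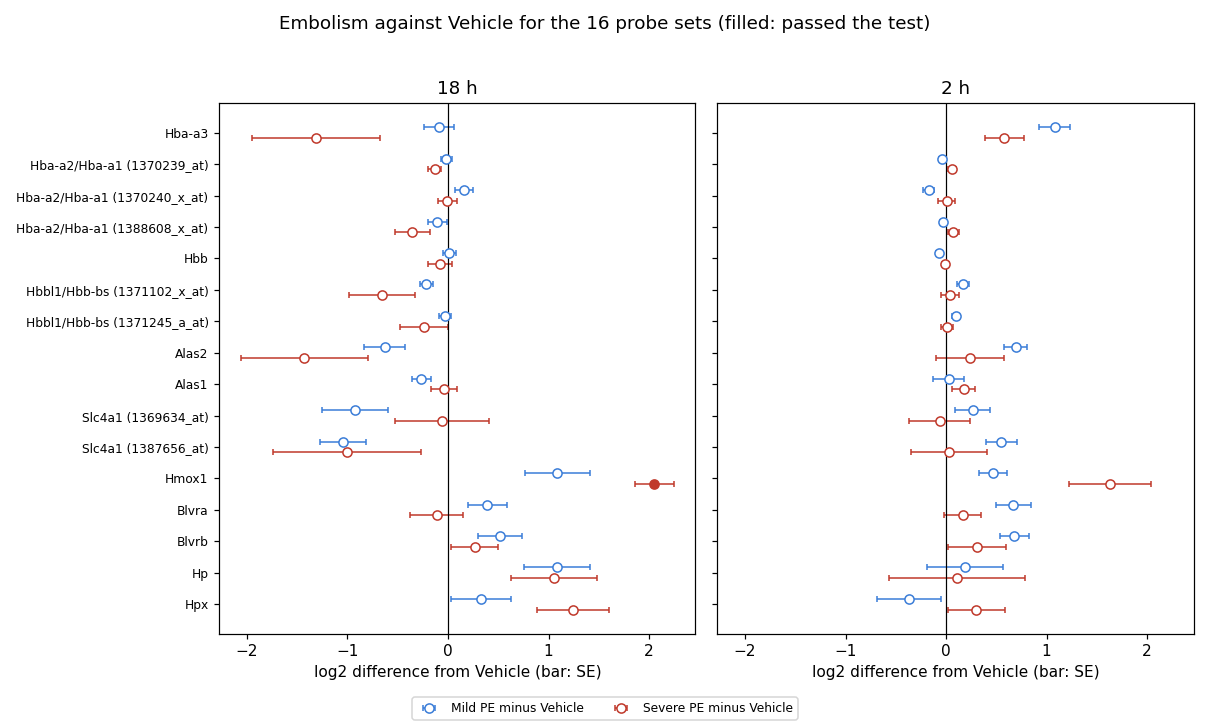
Log2 difference from Vehicle of the same time for the 16 probe sets, at 18 h (left) and 2 h (right), where points are Mild PE and Severe PE minus Vehicle, bars are SE, and a filled point passed the test (adjusted p under 0.05 and at least 1.5-fold). Hmox1 in 18-h Severe PE (2.05) is the filled point, and Hba-a3 and Alas2 lie right of 0 at 2 h and left of 0 at 18 h.

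Liver is the main source of haptoglobin and hemopexin. The summed signal of 9 hepatocyte genes was 438 to 770 in 18-h Severe PE lungs against 1221 to 1577 in 18-h Vehicle lungs, and this was the difference of 1 gene, Serpina1 (210 to 510 against 996 to 1432). The other 8 summed to 220 to 260 against 145 to 234, and Tat was at the floor in all 6 groups. Neutrophils also carry haptoglobin. The sum of 9 neutrophil genes was 14325 to 28264 in 18-h Vehicle lungs, 15656 to 39738 in 18-h Mild PE lungs and 22081 to 43004 in 18-h Severe PE lungs, and 0 of the 9 were called. Their part in the Hp values was not tested. Of 13 acute phase genes, Hp and Hpx included, 6 rose in 18-h Severe PE lungs, where 3.21% of all probe sets did. These were Saa3 (4.07), Orm1 (3.83), Serpina3n (4.72), A2m (2.09), Fgg (1.56) and Lcn2 (2.35). Without rat 2 the number was 3, and the calls over all probe sets were then 980, against 2212 with it. In 18-h Mild PE lungs the number was 1, Saa3 (2.23), and 0 without the arrays of less 5′ signal, a fit that called 3 of all probe sets, against 321 with them.

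Of 5 measured genes that clear hemoglobin and heme, 1 was called in 18-h Severe PE lungs (7.13% of all probe sets). This was Cd163, the macrophage receptor for the haptoglobin and hemoglobin complex. It read 8.05 ± 0.54 against 5.98 ± 0.74 in 18-h Vehicle lungs (SD, n = 4 and 3, limma adjusted p = 0.0440), and it was not called without rat 2 or without the arrays of less 5′ signal. Lrp1, the receptor for the hemopexin and heme complex, read 12.06 ± 0.09 against 11.58 ± 0.15 (SD, n = 4 and 3, limma adjusted p = 0.0315), under 1.5-fold.

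Some genes that move iron rose in the 18-h Severe PE lungs. Of 17 measured genes of heme and iron transport and storage 6 were called, all higher, with a median of 0.24 over the list. Among all probe sets 3.21% were called higher there. Tfrc read 9.83 ± 0.22 against 8.40 ± 0.08 in Vehicle lungs, Slc11a2 (the iron transporter DMT1) 10.27 ± 0.23 against 9.40 ± 0.01, and Steap3, a ferrireductase of endosomes, 8.00 ± 0.14 against 7.23 ± 0.12 (SD, n = 4 and 3, limma adjusted p = 0.00729, 0.0196 and 0.0145). Hamp, which encodes the iron hormone hepcidin, differed by 1.49, Lcn2 by 2.35 and Ireb2, an iron sensor, by 0.62. Without rat 2 the calls were 3, Tfrc, Slc11a2 and Steap3, and without the arrays of less 5′ signal they were 4, Tfrc, Steap3, Lcn2 and Abcg2, a heme and urate exporter. At 18 h in Mild PE and at 2 h in both doses 0 of 17 were called. The heme exporter Flvcr1 (0.33) and ferroportin, Slc40a1 (−0.16), were not called (limma adjusted p = 0.0794 and 0.792).

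Over the 22 arrays, 4 relations between members were computed. The mean globin level is the mean over the globin probe sets, whose ranges differed. Hba-a3 ranged over 3.30, and the other globin probe sets over 0.29 to 1.62. The variation of the mean is therefore weighted to Hba-a3. The mean globin level correlated with Alas2 at r = 0.900 and rho = 0.790 (permutation adjusted p = 8.00e-05 for both, over 4 relations), at r = 0.651 with median centring and at r = 0.726 without the 2 arrays farthest out. After group means were removed r was 0.880, and 0.489 without 18-h Severe PE rat 2. With the first Slc4a1 probe set it correlated at r = 0.594 and rho = 0.509 (permutation adjusted p = 0.00919 and 0.0219), and at r = 0.270 without 18-h Severe PE rat 2 (permutation adjusted p = 0.237). Within groups r was 0.894, and 0.574 without that rat, and with median centring the pooled r was 0.749. Hp and Hmox1 correlated at r = 0.557 and rho = 0.535 (permutation adjusted p = 0.00919 and 0.0219), r = 0.631 without the 2 arrays farthest out, and r = 0.306 within groups. The mean globin level and Hmox1 correlated at r = −0.429 and rho = −0.285 (permutation adjusted p = 0.0185 and 0.198), with r = −0.171 without the 2 farthest arrays and r = 0.0755 with median centring, so that relation did not hold. All points share the array's scaling, and the groups' means enter the pooled values.

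The probe sets most like the members in pattern, among 15609 with 1 symbol and no array at the floor, were found by Pearson's r over the 22 arrays, as a description. For Alas2 these were Cdc25b (0.945), Fech (0.922), Mkrn1 (0.891), Bpgm (0.887) and Alox15 (0.861). Without 18-h Severe PE rat 2 the same 5 had r of 0.774 to 0.872. For the mean globin level they were Cdc25b (0.838), Magee1 (0.812), Mkrn1 (0.809), Lix1l (0.801) and Tmem106c (0.800), with 0.388 to 0.756 without that rat. For Hmox1 they were Slc20a1 (0.952), a phosphate transporter, Urb2 (0.914), Zbed4 (0.906), Tfpi2 (0.896) and B4galt1 (0.893), which kept 0.884 to 0.949 without that rat. For Hp they were Tlr1 (0.843), Pitpna (0.834), Rnaset2 (0.816), Atp2a2 (0.816) and Cd14 (0.803), of which Tlr1 and Cd14 are receptors of innate immune cells.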

How the data were processed

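Each of 22 rats gave lung RNA for 1 array of the type Affymetrix Rat Genome 230 2.0. The deposited values were linear signal intensities, which the authors' table scales to a common trimmed mean of about 500.2 (2% trimmed at each end), not the log values of the normalization that the methods name. The software behind them is not given in the sources used here. The 57 control probe sets were left out, intensities were floored at 16 (13.6% to 17.3% of each array), taken to log2 and quantile normalized. Groups were compared in pairs with limma 3.58.1 in R 4.3.3, with Benjamini-Hochberg adjustment over 31042 probe sets, and a call needed an adjusted p under 0.05 and 1.5-fold. Differences between times of 2 effects, and time, dose and interaction, were fitted on all 22 arrays. Arrays carry no counts, so their number limits the precision. The fits were tested on simulated data.

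The members and gene lists were chosen with earlier results of these data known. Text names all members and up to 4 genes of each list with the smallest adjusted p. Other genes named, such as Klf1, Slc25a37, Cd36, Csf1r, Epb42, Flvcr1 and Slc40a1, were chosen after their values were seen. Probe set symbols came from the platform annotation, with 1 symbol for 20826, several for 436 and none for 9780. No source says more of replicates than that each array is 1 rat. Alternatives changed the scaling, floor, filter, variance model, test, arrays fitted and replicate block, and those that left out named arrays from the list counts were added after the data were seen.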

Additional observations from a re-analysis of the deposited data

Results flagged for a closer look

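In groups of 4 lungs, a lung was singled out where its gap to the nearest other lung took more of the group's range than Dixon's limit allows, which chance does in about 1 in 20 groups. Of 64 groups, 10 were singled out, 8 of them in the 18-h Severe PE group. Values are on the log2 scale. Rat 2 of that group was low for Alas2 (9.52, next 11.69), for both Slc4a1 probe sets (6.21, next 7.73, and 5.78, next 8.22), for both Hbbl1/Hbb-bs probe sets (13.07, next 14.15, and 13.95, next 14.76) and for a probe set of Hba-a2/Hba-a1 (14.01, next 14.53). Other lungs of the group stood out once each: rat 4 was high for Alas1 (11.98, next 11.63) and rat 1 low for Hp (10.37, next 11.63). In the Mild PE groups the gaps were small, with 14.59 (next 14.68) for a probe set of Hba-a2/Hba-a1 in 18-h rat 4 and 14.10 (next 14.03) for Hba-a3 in 2-h rat 4.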

How the results depend on the processing

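Of the 30 differences of members between groups whose values the text gives, 1 changed sign under an alternative: that of the second Slc4a1 probe set in 18-h Severe PE against Vehicle (−0.06), which ran from −0.23 to 0.35 without 1 array at a time. Of their 481 values under alternatives, 442 kept their side of the threshold, 16 passed it newly and 23 no longer passed. Where a comparison held only 1 array of less 5′ signal, 1 fit entered these counts under 2 names. Over all 144 differences of the 16 members, 110 of 2334 values had the other sign, in 42 differences, and none of these was called with either sign. With 1 fit on all 22 arrays the members called numbered 1 in 18-h Mild PE, 5 in 18-h Severe PE and 1 in 2-h Severe PE against Vehicle, and 2 in 18-h against 2-h Severe PE lungs. With probe sets below the median level left out they numbered 1 in 18-h Mild PE and 2 in 2-h Mild PE against Vehicle, 1 in the Severe PE difference between times and 4 for dose. With median centring they numbered 1 in 2-h Mild PE, 1 in the Severe PE difference between times and 10 for time (5 of them globins, where 19.9% of all probe sets passed), and with a variance trend 1 in that difference. In 18-h against 2-h Mild PE lungs 1 was called with a floor of 64, with the methods' t-test, or without the 4 arrays of less 5′ signal, which gave 1 also in 2-h Mild PE and for dose. The cause was not tested.

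Replicate numbers only name rats: same-numbered arrays had residual correlations of −0.273 to 0.123 (median −0.0208). With the replicate block 0 members were called in 18-h Severe PE against Vehicle, in 18-h against 2-h Mild PE and in 18-h against 2-h Severe PE lungs.

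Without 1 array at a time, the members called ranged 1 to 2 in 18-h Severe PE and 0 to 1 in 2-h Mild PE against Vehicle, 0 to 2 in 18-h against 2-h Mild PE and 0 to 1 in 18-h against 2-h Severe PE lungs. They ranged 0 to 1 in the Mild PE and 0 to 2 in the Severe PE difference between times, and 3 to 5 for time, 1 to 5 for dose and 0 to 1 for interaction. The globin and Hmox1 relation was r = 0.0755 with median centring, −0.0405 without normalization and −0.286 without 18-h Severe PE rat 2, and the globin and Slc4a1 relation 0.270 without that rat. Over all probe sets, calls in 18-h Severe PE against Vehicle ran from 0 with the block to 3838 with 1 fit on all arrays (2212 as reported), in 18-h Mild PE from 0 to 1589 (321), in 2-h Mild PE from 0 to 249 (103), in 2-h Severe PE from 0 to 188 (7), in 18-h against 2-h Mild PE from 0 to 1830 (1691), in Severe PE from 0 to 3021 (1956), in Vehicle from 0 to 833 (5), in Severe against Mild PE from 0 to 326 at 18 h (0) and from 1 to 346 at 2 h (136), in the Mild PE difference between times from 61 to 461 (231), in that of Severe PE from 1242 to 3085 (1778) and for interaction from 702 to 1929 (1123).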
